A study of Brachypodium distachyon with 8 samples.

Results

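The response of *Brachypodium distachyon* leaves to methyl jasmonate (MeJA) was measured here in libraries whose file names mark them as wild type, without the transgene for *LITTLE NINJA* (*LNJ*). *Brachypodium* Bd21-3 is a small temperate grass used as a model for cereals, and MeJA is the volatile methyl ester of the hormone jasmonic acid (JA). The comparison holds 4 of the 8 mRNA-seq libraries of the study, 2 from plants sprayed with 100 μM MeJA in 0.15% Tween and 2 from mock-treated plants sprayed with Tween alone. They were chosen by the names of the deposited files, which carry WT for these 4 libraries and ABI for the other 4. Libraries are called WT-named or ABI-named below and keep the numbers of the file names, MeJA libraries 3 and 4 and mock libraries 1 and 2 for the WT-named set, MeJA libraries 7 and 8 and mock libraries 5 and 6 for the ABI-named set. The sample titles give every library the opposite genotype, with ABI in the titles of the WT-named libraries and WT in those of the ABI-named ones. The sample labels call the WT-named libraries MTL-OX, so the labels and the file names conflict.

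Plants were 4 wk old when treated, and each sample was made from 12 plants. For RNA work the methods describe 5 sprays, 3 d apart, and harvest 30 min later, while a separate paragraph on MeJA treatment describes 3 sprays, 2 d apart. The ABI-named libraries, used here only for comparison, received the same 2 treatments. The *BdLNJ-OX* plants of the study carry *LNJ* in an overexpression vector, and the labels do not say which of the independent transgenic lines was sequenced. The methods call the 2 samples of a group biological replicates, and the p-values measure the spread between these samples.

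In JA signaling, JAZ proteins hold MYC-type transcription factors in a repressed state. NINJA is the adaptor that links JAZ to the corepressor TOPLESS. Once the hormone is present, the COI1 receptor complex marks JAZ proteins for degradation and the target genes are released, among them genes of JA synthesis, JA inactivation and defense. In many plants the *JAZ* genes are targets themselves. LNJ is a microProtein, a small protein that resembles part of a larger one, and it carries a domain also found in NINJA.

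The deposited values are FPKM, fragments per kilobase of transcript relative to the mapped fragments of the library, which were divided here by 1 factor per library (0.850 to 1.11 in the WT-named libraries, 1.04 to 1.07 in the ABI-named ones) and are called scaled FPKM. The bounds of the authors' confidence interval imply the number of fragments behind a value. For 20 of the 100 most abundant genes the implied number did not follow the FPKM from library to library (off by more than 1.5-fold), so no fragments are given for such genes and sums over a library are approximate. The WT-named libraries held 13910961 to 15075280 implied fragments, and 19514 to 19959 of 27830 identifiers had a value above 0. Across the 14922 genes that averaged 1 FPKM or more, the log2 values of MeJA libraries 3 and 4 correlated with r = 0.968 and those of mock libraries 1 and 2 with r = 0.948, the lowest of the 4 groups, where genes are not independent replicates. The tables pair no BRADI identifier selected here with a gene name, and 0 of the 27830 identifiers matched the RefSeq gene table. Identifiers are therefore printed for the pathway genes, for genes the tables name and for 2 genes in each direction, and other genes are given by the position listed in the deposited tables, whose assembly is not stated.

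*LNJ* (BRADI1G69970, chromosome 1 from 68443871 to 68444179) follows the file names. It had 0 and 0.754 scaled FPKM in the WT-named MeJA libraries, where 0.754 rests on 1 fragment, and was listed at 0 in both WT-named mock libraries. In the ABI-named set it had 562 and 541 scaled FPKM after MeJA and 657 and 734 scaled FPKM after mock treatment. *LNJ* was thus at or near 0 in all 4 WT-named libraries, whichever genotype their titles give.

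The *JAZ* gene examined in the study (BRADI1G21490, chromosome 1 from 17327516 to 17329243) had 49.7 and 51.7 scaled FPKM in MeJA libraries 3 and 4, against 51.1 and 39.0 scaled FPKM in mock libraries 1 and 2. Mock library 1 lay between the MeJA libraries, so the groups overlapped. The log2 fold change on the log2(scaled FPKM + 1) scale, which understates the changes of genes with low values, was 0.18 (standard error, SE, 0.17, limma p of 0.70 after Benjamini-Hochberg adjustment). *NINJA* (BRADI2G11790, chromosome 2 from 10109219 to 10112903) had 19.6 and 24.1 scaled FPKM after MeJA, against 19.6 and 23.4 scaled FPKM after mock treatment. Its log2 fold change was 0.022 (SE 0.15, limma adjusted p = 0.97). Between 338 and 767 implied fragments per WT-named library lay behind each of these values, and a change of the *JAZ* or *NINJA* transcript past the spread between libraries was not detected at this depth. Both signs depended on the libraries used. Without mock library 2 the log2 fold change of *JAZ* was −0.015, and without mock library 1 or without MeJA library 4 that of *NINJA* was −0.11 or −0.12.

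**Figure D1:**
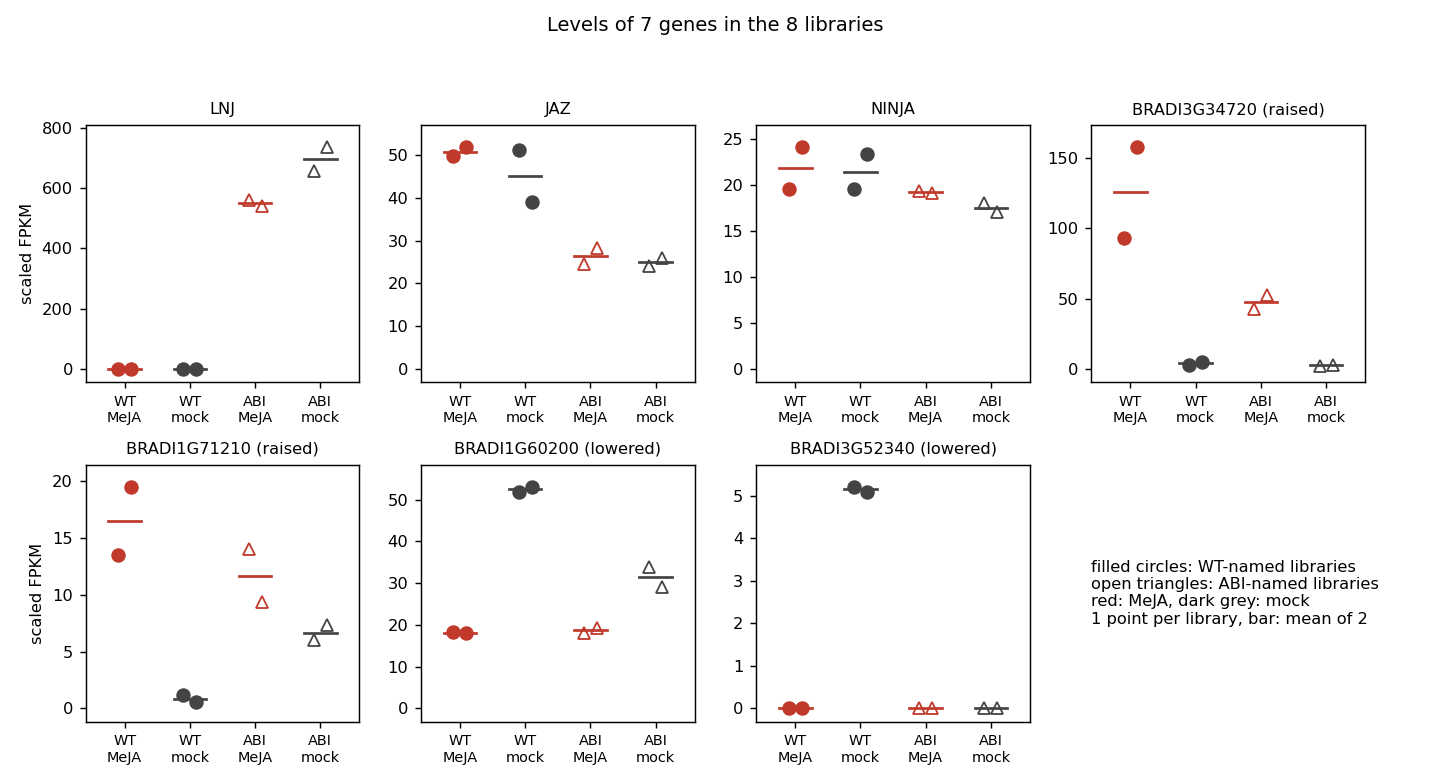
Scaled FPKM (vertical axis, 1 point per library, bar at the mean of 2) of 7 genes in the WT-named MeJA and mock libraries and in the ABI-named MeJA and mock libraries. *LNJ* is near 0 in all WT-named libraries, *JAZ* and *NINJA* overlap between WT-named MeJA and mock libraries, and the 4 genes past the threshold do not, with BRADI3G34720 at 93.3 and 157 after MeJA against 3.15 and 5.02 after mock treatment.

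MeJA raised 7 genes and lowered 6 genes past the threshold, an adjusted p of at most 0.05 from limma together with a 2-fold or larger change of log2(scaled FPKM + 1). These are 0.0469% and 0.0402% of the 14922 genes tested. Before adjustment, 1781 genes (11.9%) had p below 0.05, of which 953 were higher and 828 lower after MeJA, while 5% is reached without any change. The counts of called genes rested on single libraries. They were 32 raised and 4 lowered without MeJA library 3, 6 and 1 without MeJA library 4, 3 and 3 without mock library 1, and 8 and 10 without mock library 2. With the filter, the scaling and the spread all taken from the 4 WT-named libraries alone, 3 raised and 1 lowered genes passed, of which 1 was among the 13. That gene was the U2 small nuclear RNA gene described below, which rests on 0.25 fragments per MeJA library. All other called genes had a limma adjusted p between 0.197 and 0.355 in that fit. In an exact permutation test 2 libraries against 2 cannot give a p below 0.333 when both directions count.

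BRADI3G34720 (chromosome 3 from 37082528 to 37087778) showed the largest fold of the called genes with values above 0 in both groups. It had 93.3 and 157 scaled FPKM in MeJA libraries 3 and 4, against 3.15 and 5.02 scaled FPKM in mock libraries 1 and 2, from 66.1 to 4455 fragments. The means were 125 ± 45 scaled FPKM after MeJA and 4.08 ± 1.33 scaled FPKM after mock treatment (SD, n = 2 each), a 30.7-fold ratio of the means and a log2 fold change of 4.61 (SE 0.30, limma adjusted p = 0.0126). It was called in all 4 fits that left out a WT-named library and in 7 of 8 fits with other settings, with log2 fold changes between 4.24 and 4.99 with a library left out. No other called gene with at least 20 fragments passed in all 4 of those fits. Of the 8 settings, BRADI3G34720 was not called in the fit on the 4 WT-named libraries alone (limma adjusted p = 0.197). The same gene was raised in the ABI-named libraries, with 42.3 and 52.7 scaled FPKM after MeJA, against 2.24 and 2.92 scaled FPKM after mock treatment (log2 fold change 3.76, limma adjusted p = 0.0266).

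BRADI1G71210 (chromosome 1 from 69251819 to 69253039) had the next smallest p among raised genes with at least 20 fragments. Its levels were 13.5 and 19.5 scaled FPKM after MeJA, against 1.17 and 0.564 scaled FPKM after mock treatment, where the mock values rest on 8 and 4 fragments. The log2 fold change was 3.22 (SE 0.27, limma adjusted p = 0.0348), and the gene was called in 1 of 4 fits with a library left out. In the ABI-named set it had 14.0 and 9.34 scaled FPKM after MeJA, against 5.98 and 7.36 scaled FPKM after mock treatment, all above both WT-named mock libraries.

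The other raised genes differed widely in level. The gene on chromosome 3 from 38002098 to 38004022 was the most abundant of them, with 530 and 1468 scaled FPKM in MeJA libraries 3 and 4, against 46.2 and 41.7 scaled FPKM in mock libraries 1 and 2. MeJA library 4 was far above MeJA library 3 there, and both were above every mock library (log2 fold change 4.30, limma adjusted p = 0.0438). A short locus on chromosome 1 from 15570628 to 15570939 had 275 and 517 scaled FPKM after MeJA, against 36.9 and 39.6 scaled FPKM after mock treatment (log2 fold change 3.27). A gene on chromosome 1 from 7664014 to 7664614 had 10.5 and 17.2 scaled FPKM after MeJA, against 0.799 and 0.460 scaled FPKM from 5 and 3 fragments after mock treatment. The raised gene with the smallest change among these, on chromosome 1 from 20412073 to 20416321, had 117 and 176 scaled FPKM after MeJA, against 33.0 and 31.9 scaled FPKM after mock treatment, a 4.51-fold ratio of the means. In these 4 genes the MeJA libraries lay further apart in scaled FPKM than the mock libraries, with MeJA library 4 always the higher. Levels were also higher after MeJA, so a larger relative spread is not shown for every gene.

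The seventh raised call was a U2 small nuclear RNA gene (ENSRNA049453872, chromosome 3 from 2965613 to 2965809), a spliceosomal RNA. Its 11.3 and 9.54 scaled FPKM after MeJA rest on 0.25 fragments per library by the confidence bounds, and it was listed at 0 in the other 6 libraries. With at least 20 fragments required, 6 raised and 6 lowered genes remained on the called list.

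BRADI1G60200 (chromosome 1 from 59486936 to 59487655) was a lowered gene with close replicates. It had 18.3 and 18.0 scaled FPKM in MeJA libraries 3 and 4, against 51.9 and 53.1 scaled FPKM in mock libraries 1 and 2, from 170 to 466 fragments. The means of 18.1 ± 0.2 and 52.5 ± 0.9 scaled FPKM (SD, n = 2 each) after MeJA and after mock treatment gave a ratio of 0.346 and a log2 fold change of −1.48 (SE 0.13, limma adjusted p = 0.0348). It was called in 6 of 8 fits with other settings but in 0 of the 4 with a library left out, where its log2 fold change stayed between −1.51 and −1.47. The ABI-named MeJA libraries had nearly the same level, 18.2 and 19.2 scaled FPKM, against 33.9 and 29.0 scaled FPKM in the ABI-named mock libraries.

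BRADI3G52340 (chromosome 3 from 53278249 to 53282035) was listed at 0 in both MeJA libraries, against 5.21 and 5.09 scaled FPKM from 167 and 166 fragments in mock libraries 1 and 2 (limma adjusted p = 0.0126). It was also listed at 0 in all 4 ABI-named libraries. The gene thus reached the mean of 1 FPKM needed for testing only through the mock libraries in which it was high. Groups listed at 0 show no spread, so its p rests on the pseudocount and on spread borrowed from other genes. It was called in 5 of 7 fits with other settings, and with a pseudocount of 0.1 its limma adjusted p was 0.207. Its locus overlaps a gene listed from 53280873 to 53285617, which had 56.0 and 57.7 scaled FPKM after MeJA, against 31.6 and 22.7 scaled FPKM after mock treatment, and 35.0 to 44.3 scaled FPKM in the ABI-named libraries. Fragments from the shared stretch cannot be told apart in these tables, so the value of each gene of this pair is uncertain.

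The remaining 4 lowered genes had 6.45 to 28.2 scaled FPKM in the mock libraries. The gene on chromosome 2 from 11238872 to 11244833 had 4.59 and 5.55 scaled FPKM after MeJA, against 28.2 and 22.1 scaled FPKM after mock treatment (log2 fold change −2.10, limma adjusted p = 0.0470). The gene on chromosome 3 from 4178779 to 4184487 had 2.46 and 1.98 scaled FPKM after MeJA, against 10.6 and 8.31 scaled FPKM after mock treatment. Its levels in the ABI-named set were 1.58 and 1.70 scaled FPKM after MeJA and 8.39 and 6.95 scaled FPKM after mock treatment, and the responses of the 2 sets differed by 0.01 on the log2 scale. A gene on chromosome 3 from 41860757 to 41865116 had 7.59 and 6.28 scaled FPKM after MeJA, against 18.4 and 19.1 scaled FPKM after mock treatment. The gene on chromosome 1 from 62568393 to 62569243 was called in 4 of 7 fits with other settings. With a pseudocount of 0.1 its limma adjusted p was 0.206. It reached the mean of 1 FPKM needed for testing only through the mock libraries in which it was high. It had 0.532 and 0.661 scaled FPKM after MeJA, against 9.25 and 6.45 scaled FPKM after mock treatment, and at most 0.239 scaled FPKM in any ABI-named library. Each of these 4 was called in at most 1 of the 4 fits with a library left out.

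**Figure D2:**
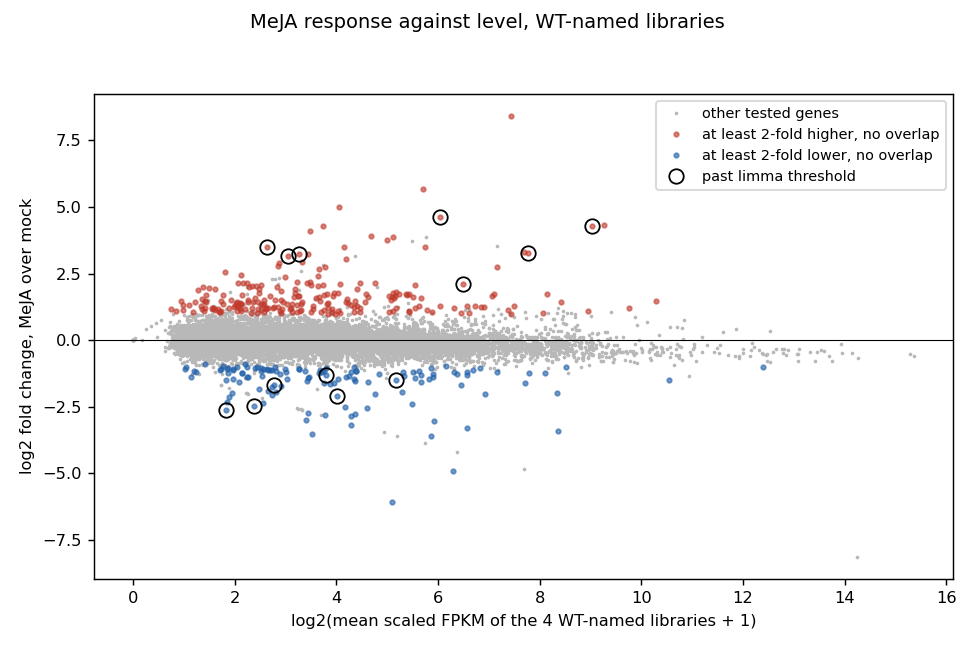
Log2 fold change of MeJA over mock in the WT-named libraries (vertical axis) against the log2 of the mean scaled FPKM + 1 of the 4 libraries (horizontal axis) for 14922 tested genes. Red and blue points are the 220 genes at least 2-fold higher and the 127 genes at least 2-fold lower without overlap of the libraries. Black rings are the 13 genes past the limma threshold, and 89 of the 100 most abundant genes lie below 0.

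A wider list without a test was made from genes whose mean differed at least 2-fold on the log2(scaled FPKM + 1) scale and whose MeJA and mock libraries did not overlap. It held 220 raised genes (1.47% of those tested) and 127 lowered genes (0.851%), a share of 63.4% raised. These genes were chosen for their change, so the values below describe them. Without scaling of the libraries the lists held 334 and 74 genes, 81.9% raised, and the median over all tested genes was then 0.18 on the log2 scale rather than −0.01. Both lists grew whichever WT-named library was left out. A group of 1 library meets the rule of no overlap more easily, so this growth cannot show how far the lists depend on single libraries.

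Genes on the raised list had a median level of 14.2 scaled FPKM after MeJA and 3.36 scaled FPKM after mock treatment. The median levels on the lowered list were 5.04 scaled FPKM after MeJA and 17.5 scaled FPKM after mock treatment, while the median over all tested genes was 8.04 scaled FPKM after MeJA and 7.91 scaled FPKM after mock treatment. Of the 220 raised genes, 202 had at least 20 fragments after MeJA, 49 were at least 4-fold higher and 20 at least 8-fold. Of the 127 lowered genes, 106 had at least 20 fragments after mock treatment, 25 were at least 4-fold lower and 8 at least 8-fold. These 4-fold and 8-fold counts use the log2(scaled FPKM + 1) scale, which understates the changes of genes with low values. The median log2 fold change was 1.43 on the raised and −1.32 on the lowered list, against −0.01 over all tested genes. Listed loci were short, with a median span of 1795 bp on the raised and 1707 bp on the lowered list, against 3316 bp over all tested genes. They came from all levels when tested genes were split into 4 equal bins by mean level. The raised list held 1.18% of the lowest bin and 1.58% of the highest, and the lowered list 0.590% of the lowest and 1.1% of the highest. All 5 chromosomes were represented. The raised list held 1.06% of the tested genes of chromosome 4 and 1.77% of those of chromosome 2, the extremes, and the lowered list 0.652% of those of chromosome 3 and 1.55% of those of chromosome 5.

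The size of the response differed between the MeJA libraries, more on the raised than on the lowered list. On the raised list, MeJA library 4 was further from the mock mean than MeJA library 3 for 139 of 220 genes, and the median change was 1.33 on the log2 scale in MeJA library 3 and 1.60 in MeJA library 4. On the lowered list it was further for 77 of 127 genes, with medians of −1.32 in MeJA library 3 and −1.37 in MeJA library 4. Over all tested genes, MeJA library 4 was above MeJA library 3 for 6698 of 14922. A lower value in MeJA library 4 was therefore common beyond the lowered list. The MeJA libraries differed at least 2-fold from each other for 48 raised and 23 lowered genes, against 545 of all 14922 tested genes. The mock libraries differed at least 2-fold from each other for 60 raised and 30 lowered genes, against 1135 of all tested genes.

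Most of the genes with the largest changes and at least 20 fragments did not pass the test, and the examples given were chosen after their values were seen. The largest change was on chromosome 4 from 23577033 to 23578479, with 17.8 and 186 scaled FPKM in MeJA libraries 3 and 4, against 0.123 and 0.178 scaled FPKM from 1.99 and 3 fragments in mock libraries 1 and 2 (log2 fold change 5.69, SE 0.98, limma adjusted p = 0.15). A gene on chromosome 3 from 19703012 to 19706844 reached 493 and 1857 scaled FPKM after MeJA, against 43.4 and 51.2 scaled FPKM after mock treatment (limma adjusted p = 0.09). Some changes rested mainly on MeJA library 4. The gene on chromosome 3 from 37104885 to 37110548, close to BRADI3G34720, had 1.93 and 121 scaled FPKM after MeJA, against 0.428 and 0.372 scaled FPKM after mock treatment. A gene on chromosome 1 from 16873204 to 16873911 had 4.53 and 128 scaled FPKM after MeJA, against 1.08 and 0.579 scaled FPKM after mock treatment.

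A group of lowered genes showed steps between libraries. The gene on chromosome 1 from 47487631 to 47488729 had 18.8 and 0.152 scaled FPKM in MeJA libraries 3 and 4, against 178 and 114 scaled FPKM in mock libraries 1 and 2 (log2 fold change −4.91, SE 1.30, limma adjusted p = 0.25). The same order was found on chromosome 1 from 5868920 to 5878752, with 9.90 and 0.171 scaled FPKM after MeJA, against 40.4 and 23.8 scaled FPKM after mock treatment. It was found again from 17678428 to 17686608, with 10.8 and 0.545 scaled FPKM after MeJA, against 41.0 and 21.4 scaled FPKM after mock treatment. From 58355096 to 58361769 of the same chromosome the values were 3.30 and 0.0418 scaled FPKM after MeJA and 25.0 and 9.92 scaled FPKM after mock treatment. In all 4 genes mock library 1 was the highest, MeJA library 4 was close to 0, and no ABI-named library exceeded 5.59 scaled FPKM. These 4 were picked for this order after their values were seen.

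**Figure D3:**
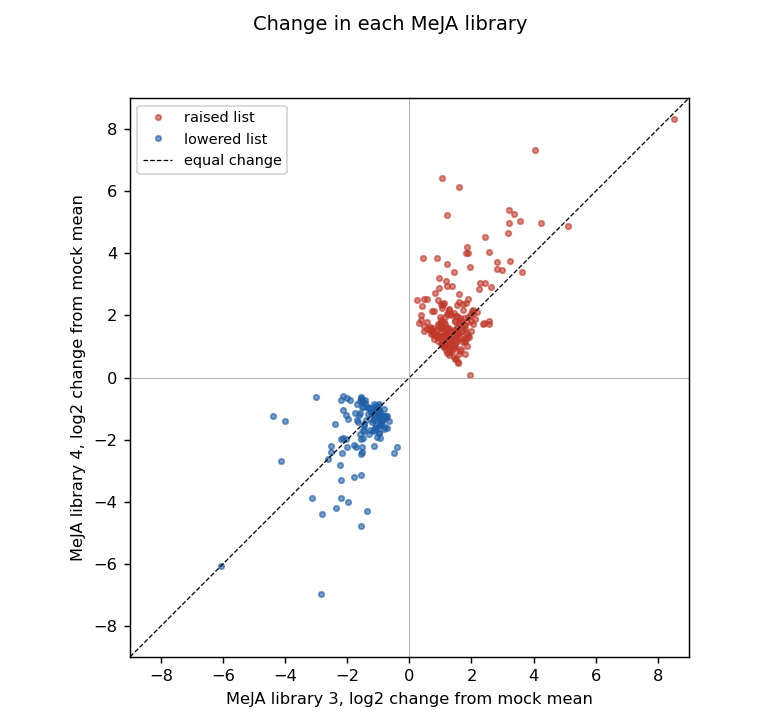
Log2 change of MeJA library 3 (horizontal axis) and MeJA library 4 (vertical axis) from the mean of mock libraries 1 and 2 for the 220 raised (red) and 127 lowered (blue) genes of the list without a test, with the dashed line at equal change. Most raised genes lie above the line, 139 of 220, and several lowered genes lie well below it.

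Neighbouring genes were listed together in places. Of the 216 BRADI genes of the raised list on the 5 chromosomes, 24 (11.1%) lay next to another raised gene, against 247 of 14814 tested genes (1.67%). For the lowered list it was 8 of 125 genes (6.40%), against 147 of 14814 (0.992%). Neighbours can share sequence or fragments and are not independent. The longest raised stretch was 4 adjacent genes on chromosome 3 from 37975908 to 38004022, the last of which is the abundant called gene described above. In order along the chromosome the first had 8.09 and 25.6 scaled FPKM after MeJA, against 2.88 and 2.11 after mock treatment. The second had 124 and 381 scaled FPKM after MeJA, against 35.5 and 27.3 after mock treatment. The third had 2.03 and 4.37 scaled FPKM after MeJA from 30 and 76 fragments and was listed at 0 in both mock libraries. MeJA library 4 was 2.15-fold to 3.17-fold above MeJA library 3 in all 4 genes, and the last gene alone passed the test.

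On chromosome 4, from 4702981 to 4726983, 4 of 5 adjacent genes were on the lowered list, and the fifth was too low to be tested. The most abundant of them, from 4715043 to 4715742, had 19.9 and 5.64 scaled FPKM in MeJA libraries 3 and 4, against 151 and 61.2 scaled FPKM in mock libraries 1 and 2 (log2 fold change −3.05, SE 0.70, limma adjusted p = 0.22). The order of the libraries was the same in all 4 listed genes, with mock library 1 highest, then mock library 2, MeJA library 3 and MeJA library 4. In the ABI-named set the same gene had 56.8 and 21.5 scaled FPKM after MeJA, against 33.0 and 40.9 scaled FPKM after mock treatment, so those groups overlapped. The listed gene from 4707499 to 4708284 did not overlap there and lay the other way, with 30.6 and 10.3 scaled FPKM after MeJA, against 8.24 and 7.60 scaled FPKM after mock treatment (log2 fold change 1.08, limma adjusted p = 0.93). Its WT-named values were 7.15 and 2.05 scaled FPKM after MeJA and 41.3 and 17.5 scaled FPKM after mock treatment, and the difference of the responses did not pass the test (limma adjusted p = 0.999).

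**Figure D4:**
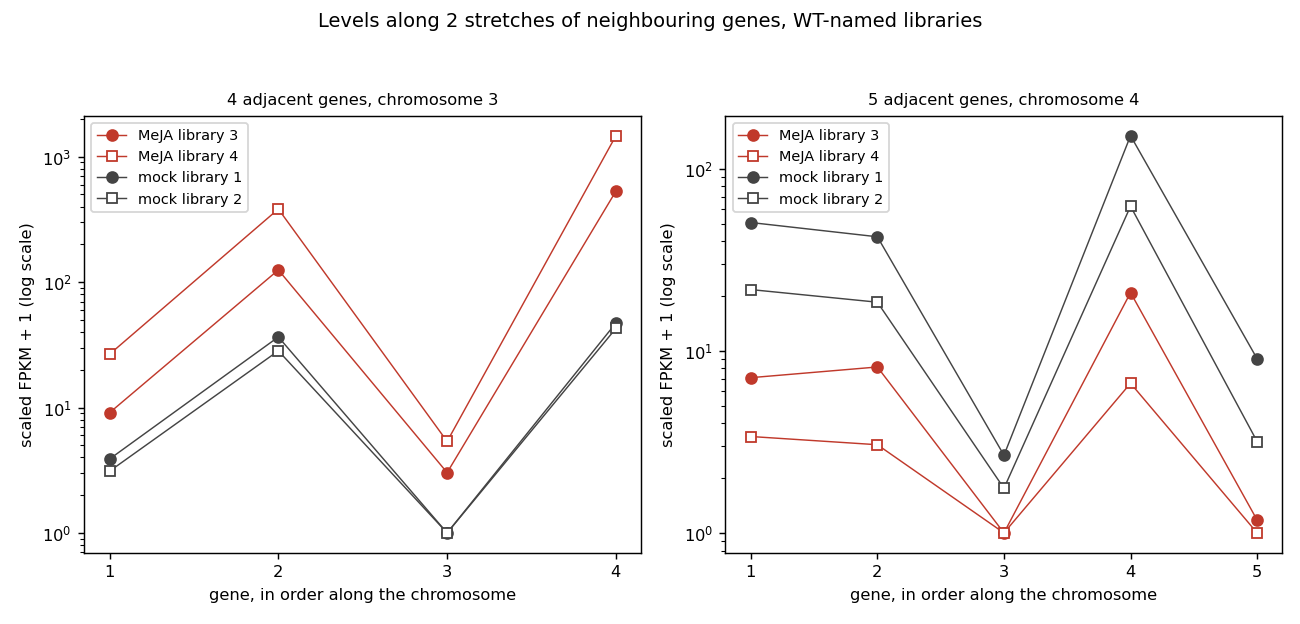
Scaled FPKM + 1 (log axis) of adjacent genes in order along the chromosome, in MeJA libraries 3 and 4 (red) and mock libraries 1 and 2 (dark grey). On chromosome 3 both MeJA libraries lie above both mock libraries in all 4 genes, and on chromosome 4 both lie below them in all 5 genes.

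The most abundant transcripts were slightly lower after MeJA. Of the 100 genes with the highest mean level over the 4 WT-named libraries, 89 had a negative log2 fold change, the median was −0.45 against −0.01 over all tested genes, and 0 were called by limma, while 40 had an unadjusted p below 0.05. Over all tested genes 51.4% were negative and 11.9% had such a p. Together they held 51.6% and 49.1% of the summed scaled FPKM in MeJA libraries 3 and 4, against 60.6% and 54.5% in mock libraries 1 and 2. In the ABI-named libraries the same genes held 48.0% and 46.7% after MeJA, against 49.8% and 47.0% after mock treatment, with a median log2 fold change of −0.09. The scale factors moved with these shares, 0.993 and 1.11 in the MeJA libraries and 0.850 and 0.937 in the mock libraries, and their part in the difference was not tested. The most abundant gene, on chromosome 3 from 27092719 to 27093652, had 42420 and 25510 scaled FPKM after MeJA, against 54220 and 45970 scaled FPKM after mock treatment (log2 fold change −0.60, limma adjusted p = 0.43). MeJA library 4 was the lowest and mock library 1 the highest there. The implied fragments of this gene did not follow its FPKM between libraries, so the depth behind these values is not known.

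The tables name 42 BRADI loci after plastid genes, the nearest to leaf markers that could be checked, since the chloroplast genome encodes subunits of the photosystems, the ATP synthase and the plastid ribosome. Reads from the plastid genome itself and from these copies on the chromosomes cannot be told apart. Of the 42 loci, 28 were tested and 21 had at least 20 fragments on average, and all of these were detected in every library. Of the 21, 14 were lower after MeJA, with a median log2 fold change of −0.31, against 51.4% lower and −0.01 over all tested genes. By limma 0 were called and 3 had an unadjusted p below 0.05, a share near the 11.9% of all tested genes. These 3 were *rps18* (BRADI1G05752) and *rps15-B* (BRADI3G27272), ribosomal proteins, and *ATPH* (BRADI5G23841), an ATP synthase subunit. The *rps18* locus had 14.5 and 15.8 scaled FPKM after MeJA, against 31.9 and 27.4 scaled FPKM after mock treatment (log2 fold change −0.92, limma adjusted p = 0.27). Other loci lay on the other side, such as those of *rps7* (BRADI3G27290), also a ribosomal protein, with 12.9 and 15.9 scaled FPKM after MeJA, against 10.2 and 12.9 scaled FPKM after mock treatment (log2 fold change 0.30, limma adjusted p = 0.69), and *clpP* (BRADI1G05750), a protease subunit, with a log2 fold change of 0.27 (limma adjusted p = 0.71). The *rps7* locus overlaps another listed gene, and its MeJA and mock libraries overlapped in level. For *psbA* (BRADI4G19720), which encodes the D1 protein of photosystem II, mock library 1 stood apart, with 15.8 and 14.5 scaled FPKM after MeJA, against 35.2 and 14.6 scaled FPKM after mock treatment. The *psaC* locus (BRADI1G05756), a photosystem I subunit, was the most abundant, with 412 and 437 scaled FPKM after MeJA, against 752 and 479 scaled FPKM after mock treatment. In the ABI-named libraries the median log2 fold change of the 21 loci was 0.05.

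Named RNA genes showed no called change other than that of U2. Ribosomal RNA took 1.87% and 2.39% of the implied fragments in MeJA libraries 3 and 4, against 2.28% and 2.01% in mock libraries 1 and 2, and these shares overlapped between the groups. All 43 ribosomal RNA loci with at least 20 fragments on average had a negative log2 fold change, against 51.4% of all tested genes. Their median was −0.24 (−0.25 in the ABI-named libraries), against −0.01 over all tested genes. By limma 0 were called and 3 of the 43 had an unadjusted p below 0.05, against 11.9% of all tested genes. Near-identical copies share reads, so these loci are not independent. The 1 miRNA locus with at least 20 fragments on average, MIR7757 (ENSRNA049757971), had 8.31 and 11.9 scaled FPKM after MeJA, against 4.19 and 6.96 scaled FPKM after mock treatment (log2 fold change 0.77, SE 0.34, limma adjusted p = 0.45). Mature miRNAs are not measured by these libraries, and the value is that of the longer transcript.

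The ABI-named libraries, which share no sample with the WT-named ones, give the response of the listed genes in a second set of plants. There MeJA raised 2 and lowered 2 genes past the threshold (0.0134% of those tested in each direction). Of the 220 genes of the raised list, 188 (85.5%) were also higher after MeJA in the ABI-named libraries, against 49.1% of all tested genes, and their median log2 fold change there was 0.51. Of the 127 genes of the lowered list, 99 (78.0%) were lower there, against 50.8% of all tested genes, and their median was −0.46. By the same rule of a 2-fold change without overlap the ABI-named libraries gave 147 raised (0.985% of those tested) and 90 lowered genes (0.603%). The raised lists shared 60 genes, 27.3% of the WT-named and 40.8% of the ABI-named list, and the lowered lists shared 28 genes, 22.0% of the WT-named and 31.1% of the ABI-named list. No gene of the WT-named raised list was on the ABI-named lowered list, and 4 genes of the WT-named lowered list were on the ABI-named raised list.

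Mock levels also differed between the sets for these genes. For 58 of the 220 raised genes (26.4%) the ABI-named mock mean was at least 2-fold above the WT-named mock mean, against 1.09% of all tested genes. For 47 of the 127 lowered genes (37.0%) it was at least 2-fold below, against 1.61% of all tested genes. The WT-named mock libraries chose these genes, as low for the raised and as high for the lowered list, so these shares are a description.

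The difference between the responses was tested for each gene, as the log2 fold change of the WT-named libraries minus that of the ABI-named libraries. In limma 2 genes passed with a larger WT-named value (0.0134% of those tested) and 0 with a smaller one, and both rest on at most 1 fragment in any library. Before adjustment, 644 genes (4.32%) had p below 0.05. With at least 20 fragments required, 0 genes passed in limma. The smallest adjusted p among deeper genes was 0.09, for 2 genes in loci that overlap another gene. One was BRADI3G52340, whose values are uncertain as described above. The other, on chromosome 1 from 73082489 to 73085333, was listed at 0 in all 4 WT-named libraries and had 5.69 and 7.62 scaled FPKM in the ABI-named MeJA libraries, against 0 in both ABI-named mock libraries. For BRADI3G34720 the difference was 0.85 (limma adjusted p = 0.999) and for BRADI1G71210 it was 2.52 (limma adjusted p = 0.60). A gene that passed in the WT-named set and not in the ABI-named one is therefore not shown to respond differently.

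**Figure D5:**
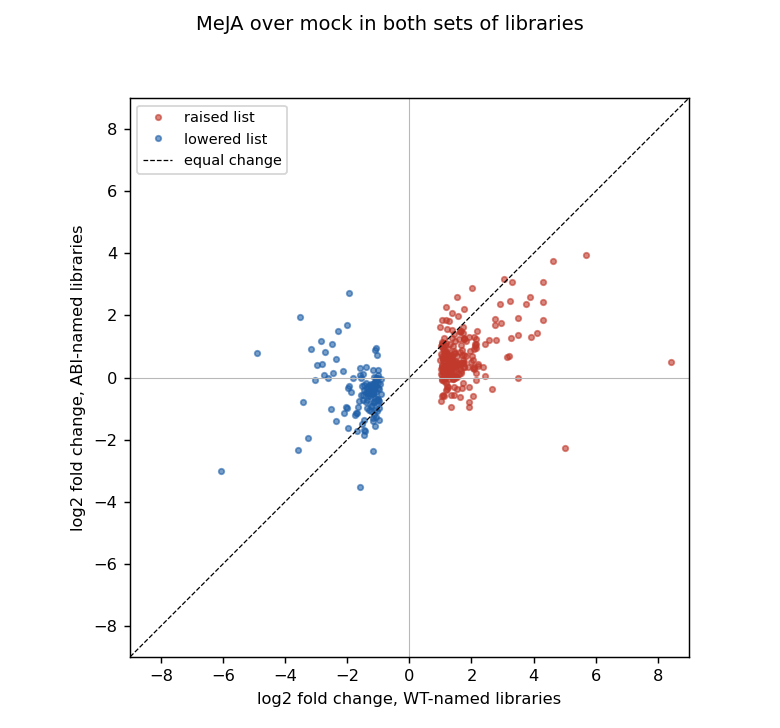
Log2 fold change of MeJA over mock in the WT-named libraries (horizontal axis) and in the ABI-named libraries (vertical axis) for the 220 raised (red) and 127 lowered (blue) genes of the list without a test, with the dashed line at equal change. Points were selected by the horizontal value, and 188 of the red points lie above 0 and 99 of the blue points below 0 on the vertical axis.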

How the data were processed

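Leaf mRNA of *Brachypodium* was sequenced by the authors as TruSeq read pairs, aligned with TopHat2 and quantified with Cufflinks (assembly not given in the sources used here). The unit the authors deposited is FPKM per gene with a lower and upper confidence bound, 1 table per sample. Rows sharing an identifier were summed and 1 of 27833 rows without an identifier was left out.

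Genotype was taken from the file names and treatment from the sample titles, and the file names give the same treatments. FPKM were scaled by the median ratio to the geometric mean over 8 libraries, using 17713 genes above 0 in all of them. Implied fragments are (2 FPKM / (upper bound − FPKM)) squared. Of values under 20 fragments, 82.7% to 84.0% per library were whole within 0.05. Among tested genes with at least 20 implied fragments, 180 of 14287 had implied fragments that did not follow FPKM between libraries within 1.5-fold. The bounds cover counting and assignment error only.

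Genes averaging 1 FPKM or more were fitted with limma 3.58.1 in R 4.3.3 (mean-variance trend) on log2(scaled FPKM + 1) over all 8 libraries with 1 mean per group, leaving 4 residual degrees of freedom, with Benjamini-Hochberg adjustment. Groups of 2 give too few degrees of freedom alone. The fit was run on simulated data with changes planted in genes of higher level, as a check of the estimated size of change. That check does not show that the calls are reliable. The members and lists were chosen with earlier results of these data known. Named genes were *LNJ*, *JAZ*, *NINJA*, the called genes and, of the genes 2-fold changed without overlap, those with the smallest p and at least 20 fragments. Genes with the largest changes, neighbouring genes, abundant genes and loci named in the tables were added after values were seen. At most 2 identifiers per direction are printed. Pathway and leaf marker lists, 27 in all, were to be matched by product text, of which 0 found a match, so they were not used. Alternatives were other scalings, pseudocounts, filters and fits, an adjusted p of at most 0.001, and each WT-named library left out.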

Additional observations from a re-analysis of the deposited data

Results flagged for a closer look

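The MeJA responses of the WT-named and ABI-named libraries differed past the threshold in limma for 2 genes. BRADI4G01960, on chromosome 4 from 1287124 to 1287446, was listed at 0 in all 4 WT-named libraries and in both ABI-named MeJA libraries, and had 20.1 and 29.1 scaled FPKM in the ABI-named mock libraries. Its log2 difference, WT-named minus ABI-named, was 4.66 (limma adjusted p = 0.0217), and at most 1 fragment lay behind any of its values. The U2 gene ENSRNA049453872 had 11.3 and 9.54 scaled FPKM in the WT-named MeJA libraries and was listed at 0 in the other 6 libraries. Its log2 difference was 3.51 (limma adjusted p = 0.0239), and 0.25 fragments lay behind each value above 0. Groups of 2 libraries were too small to look for single outlying samples.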

How the results depend on the processing

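No paired analysis was possible because the labels number the samples 1 to 8 without repeating a number between groups. The counts below are in the order raised, lowered. The 7 and 6 called genes became 8 and 3 without scaling, 5 and 1 with a pseudocount of 0.1, 4 and 3 without a filter, 5 and 3 at a mean FPKM of at least 5, 3 and 1 with the 4 WT-named libraries alone, and 4 and 5 with voom on implied fragments. They were 0 and 0 at an adjusted p of at most 0.001 in limma, where 1781 genes had an unadjusted p below 0.05. With 1 library left out they ranged over 3 to 32 and 1 to 10. The 220 and 127 genes without a test became 334 and 74 without scaling, 333 and 215 with a pseudocount of 0.1, and 149 and 83 at a mean FPKM of at least 5, and ranged over 233 to 492 and 187 to 458 with 1 library left out. The 2 calls for a difference of responses became 0 with a pseudocount of 0.1, at a mean FPKM of at least 5, with voom, at an adjusted p of at most 0.001 and with at least 20 fragments (chosen after seeing the data), 6 without a filter and 5 without the mean-variance trend, and ranged over 1 to 10 with 1 library left out. For most settings the cause was not tested, and at a mean FPKM of at least 5 only 9657 genes were tested. Of the 13 called genes, 9 stayed called without scaling, 8 with voom and 5 with a pseudocount of 0.1. *NINJA* had a log2 fold change of −0.043 with voom. With 1 library left out it ranged from −0.12 to 0.17 for *NINJA* and from −0.015 to 0.36 for *JAZ*. For the 13 called genes no setting turned the direction. With 2 libraries per group, low depth and the spread between libraries both limit what can be called, and their parts were not told apart.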
